A study of Mus musculus with 24 samples.

Results

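The RNA of brain endothelial cells was compared between mice with and without the clock gene Bmal1 in these cells, at 2 times of day, ZT10 and ZT14. Zeitgeber time (ZT) counts the hours from lights on under a 12 h light and 12 h dark cycle, so that ZT10 lay late in the light phase and ZT14 early in the dark phase. The sample labels put 4 mutant and 4 control libraries at these times, 8 of the 24 libraries of the series, with 2 mice per genotype and time and 1 library per mouse. The control mice were Bmal1fl/fl and the mutant mice Bmal1fl/fl; Tie2cre, both of strain C57BL/6J, so that the controls also carried the floxed alleles but no Cre. Cre was driven by the promoter of Tie2 (listed as Tek), which is active in endothelium and also in cells of the blood lineage. CD31-positive cells were sorted from the whole brain of each mouse, and the ages of these mice were not given in the labels. The other 16 libraries, of ZT2, ZT6, ZT18 and ZT22, entered only the tests of whether a difference was particular to ZT10 and ZT14. These 2 times were chosen as the phase in which control Arntl is lowest and Per genes are high, so the levels and differences of Arntl and the Per genes are given as a description, with no p. Where these genes are counted among the genes called, that is a description too.

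In the circadian clock of a cell, BMAL1 pairs with CLOCK or NPAS2, and the pair binds E-boxes and activates the Per, Cry, Nr1d1, Nr1d2, Dbp, Tef and Hlf genes. PER and CRY proteins then inhibit BMAL1, and the REV-ERB proteins made from Nr1d1 and Nr1d2 repress Arntl, the gene of BMAL1, through RORE sites on which ROR proteins activate it. Brain endothelial cells line the vessels of the brain and form the blood–brain barrier through their tight junctions, carriers and efflux pumps.

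The values were normalized reads, which sum to between 6199072 and 6648311 per library, and 15493 genes were tested. No list of marker genes of other cell types held a gene called at an adjusted p under 0.05 by edgeR, DESeq2 or limma-voom (0 to 2 genes per list at an unadjusted p under 0.05 by edgeR), and the summed levels of these lists overlapped between the genotypes. The endothelial list summed to between 11930 and 15420 CPM (counts of a gene relative to the library total, scaled alike in all libraries) in controls and 13710 to 16990 CPM in mutants. Of its 14 genes 5 had an unadjusted p under 0.05 by edgeR (6.9% of all genes), with a median log2 difference of 0.21. The microglia and macrophage list summed to 2496 to 5509 and 3511 to 5724 CPM, so that RNA of other cells was present in both genotypes. Within ZT14 the genotypes did not overlap for this list (3153 and 2496 CPM in controls, 3513 and 3511 in mutants). The same held for astrocytes (2577 and 3142, 2157 and 2050) and neurons (403.7 and 414.1, 285.9 and 317.7). Within ZT10 the pericyte and smooth muscle list did not overlap (3059 and 2895, 2789 and 2257). A lower or higher level may stand for fewer or more cells of a type or for less or more RNA per cell, which cannot be told apart in such samples. Mitochondrially encoded genes took 7.07% to 17.4% of the reads in controls and 5.78% to 10.7% in mutants, with the highest shares in the ZT14 controls. By Xist and Y-linked reads, 2 of 4 controls and 3 of 4 mutants were female. The controls of ZT10 carried another i5 library index than the other 6 libraries, and the mutants of ZT14 came from another series of library numbers, so that index and genotype cannot be told apart at ZT10, nor number series and genotype at ZT14. At the other times, 2 libraries went against their labels. The library labelled mutant replicate 1 of ZT6 had 0 reads of Npas2 and 505 of Fmo2, where its fellow mutant had 229 and 56 and the ZT6 controls had 1 and 10 of Npas2 and 234 and 262 of Fmo2. The library labelled control replicate 2 of ZT18 had 305 reads of Npas2 and 47 of Fmo2, where its fellow control had 3 and 726 and the ZT18 mutants had 170 and 331 of Npas2 and 14 and 43 of Fmo2. Nr1d1, which in controls varies with time, had 20 reads in the first, against 1765 and 990 in the ZT6 controls and 198 in the fellow mutant, and 282 in the second, against 43 in the fellow control and 19 and 12 in the ZT18 mutants. Whether the 2 libraries were exchanged for each other was not tested. Neither entered the tests of ZT10 and ZT14 alone, and the main values that rest on the other times are given with and without both.

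Across both times, 47 genes differed between the genotypes (0.303% of 15493) by edgeR's quasi-likelihood test with Benjamini-Hochberg adjustment. Of these, 30 were higher in mutants (0.194%) and 17 were lower (0.11%). At an unadjusted p under 0.05 there were 1069 genes (6.9%). The clock genes Nr1d2 and Npas2 were among the 10 smallest p-values, as were Per3, Per2 and Arntl, which the choice of times used. With them stood genes not known as core clock genes, of which Mmp15, Cdkn1a, Fam124b, Plat and Bche were all higher in mutants. For 44 of the 47 genes the 4 mutant and the 4 control libraries did not overlap, against 578 of all 15493 genes (3.73%), and the exceptions were Nr1d1, Dbp and Npnt. The test that called the 47 used these same libraries and favours genes without overlap, so this share is a description and not support. Without control replicate 2 of ZT14 or without mutant replicate 1 of ZT14 the count fell to 31, of which 30 were among the 47 in both cases. The spread between mice of a group corresponded to a biological coefficient of variation of 44%.

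**Figure D1:**
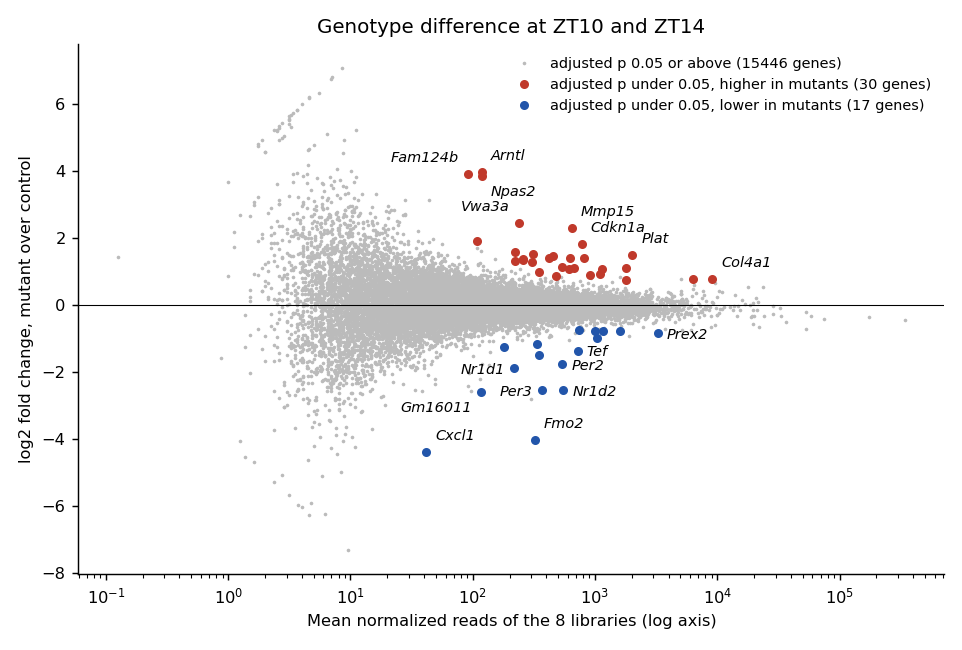
Each point is a gene, with its mean normalized reads in the 8 libraries on a log axis against the log2 fold change of mutants over controls at ZT10 and ZT14. The 30 genes called higher (red) reached a log2 fold change of 3.99 (Arntl) and the 17 called lower (blue) one of -4.38 (Cxcl1), while the grey genes with few reads spread as widely without being called.

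Arntl itself, the targeted gene (chr7:113207465-113314126, GRCm38), was counted at 1 and 22 reads in the ZT10 controls and at 15 and 13 in the ZT14 controls. The mutants held 120 and 169 reads at ZT10 and 251 and 354 at ZT14. Every mutant was thus above every control, and the level of the transcript was 15.9-fold higher in mutants (log2 3.99 ± 0.50 SE). Cre removes 1 exon of the floxed gene, and the deposited values count reads over the whole gene, so that reads from the remaining exons were still counted and these values do not check the deletion. The window around the second annotated start site of Arntl held the core of a RORE, the element that REV-ERB and ROR proteins bind. It is shown as the only RORE core found in the windows of the clock genes called, and whether it plays a part in the level of Arntl here was not tested. The 30 bases lie at chr7:113207530-113207559 on the plus strand (RefSeq, GRCm38.p6), from 20 bases after the start site on, and the core in capitals begins 31 bases after it.
Arntl: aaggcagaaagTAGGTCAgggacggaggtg

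Npas2, the partner that can stand in for CLOCK beside BMAL1, moved in the same direction as Arntl. It was read 25 and 7 times in the ZT10 controls and 14 and 12 times in the ZT14 controls, against 177 and 179 in the ZT10 mutants and 263 and 276 in the ZT14 mutants. The groups were far apart and mutants lay 14.6-fold higher (log2 3.86 ± 0.39, adjusted p = 3.02e-05). The 2 other activators did not pass the test. Clock was between 785 and 1012 reads in controls and between 871 and 1209 in mutants (log2 0.25 ± 0.15, adjusted p = 0.806), with overlapping groups. Arntl2 had few reads, with 0 to 21 reads in controls and 6 to 25 in mutants.

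Both REV-ERB genes fell. Nr1d2 was at 883 and 1067 reads in the ZT10 controls and 872 and 910 in the ZT14 controls, and at 148 and 174 in the ZT10 mutants and 217 and 134 in the ZT14 mutants. It was thus steady in controls over both times and 5.73-fold lower in mutants (log2 -2.52 ± 0.18, adjusted p = 2.68e-07), with no overlap. Nr1d1 varied more, with 497 and 433 reads in the ZT10 controls and 118 and 330 in the ZT14 controls, against 158 and 77 in the ZT10 mutants and 39 and 101 in the ZT14 mutants. One ZT14 control lay below one ZT10 mutant, while within each time the genotypes did not overlap (log2 -1.87 ± 0.34, adjusted p = 0.0146). That call was lost when control replicate 1 of ZT10, control replicate 2 of ZT14 or mutant replicate 1 of ZT14 was left out, with an adjusted p of up to 0.153. The same call was also lost in the test over all 24 libraries. The gene lies at chr11:98767932-98775333 on the minus strand and its end overlaps that of Thra, a thyroid hormone receptor, at chr11:98740638-98769006 on the plus strand. Thra was higher in mutants (log2 0.92 ± 0.14, adjusted p = 0.00166), and whether the counting used the strand is not given in the sources used here. Of the ROR receptors, which activate through the same sites, Rora had a log2 difference of -0.38 (adjusted p = 0.682) and Rorb of -0.24 (0.973).

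Among the 8 repressors of the BMAL1 complex, Per2 and Per3 were lower in mutants and the others outside the Per genes did not pass edgeR's test. Per3 had 677 and 507 reads in the ZT10 controls and 450 and 856 in the ZT14 controls. In mutants it had 136 and 117 reads at ZT10 and 109 and 81 at ZT14. The highest mutant was far below the lowest control, and Per3 was 5.82-fold lower in mutants (log2 -2.54 ± 0.24). Its promoter is shown because it held the letters of the D-box, the element bound by DBP, TEF, HLF and NFIL3, at 2 places, 205 and 158 bases before the start site. The 250 bases before the start site lie at chr4:151044666-151044915 on the minus strand (RefSeq, GRCm38.p6), with the D-boxes in capitals.
Per3: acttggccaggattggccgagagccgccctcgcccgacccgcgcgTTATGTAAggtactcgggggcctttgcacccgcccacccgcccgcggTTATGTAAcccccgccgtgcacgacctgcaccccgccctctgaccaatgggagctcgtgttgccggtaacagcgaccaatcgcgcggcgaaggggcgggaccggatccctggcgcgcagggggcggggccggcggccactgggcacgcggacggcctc

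Per2 had 657 and 631 reads in the ZT10 controls and 822 and 1169 in the ZT14 controls. The mutants had 211 and 121 reads at ZT10 and 381 and 327 at ZT14. They were below all controls at both times, by 3.39-fold (log2 -1.76 ± 0.20). Per1, in contrast, was at 978 to 1632 reads in controls and 1006 to 1331 in mutants, with a log2 difference of -0.18. Ciart, a further repressor of the complex, had 70 to 224 reads in controls and 15 to 67 in mutants without overlap and missed the threshold (log2 -2.01 ± 0.47, adjusted p = 0.0967 by edgeR), while DESeq2 called it and limma-voom did not. Cry1 was the repressor with higher reads in all mutants, 422 to 574 against 299 to 389 in controls, and it did not pass either (log2 0.45 ± 0.18, adjusted p = 0.626). Cry2 (log2 0.28), Bhlhe40 (-0.34) and Bhlhe41 (0.54) had overlapping groups.

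The 3 PAR bZIP factors, which carry the clock's signal to D-box genes, were called lower in mutants. Tef had 1130 and 1314 reads in the ZT10 controls, 685 and 1007 in the ZT14 controls, 457 and 328 in the ZT10 mutants and 413 and 446 in the ZT14 mutants. Tef was 2.55-fold lower in mutants without overlap (log2 -1.35 ± 0.18, adjusted p = 5.76e-04). Hlf had 427 to 503 reads in controls and 142 to 254 in mutants, also without overlap (log2 -1.16 ± 0.20, adjusted p = 0.0084). Dbp had 736 and 718 reads in the ZT10 controls, 215 and 396 in the ZT14 controls, 272 and 181 in the ZT10 mutants and 135 and 130 in the ZT14 mutants. The controls had fewer Dbp reads at ZT14 than at ZT10, and the groups overlapped across but not within times (log2 -1.49 ± 0.22, adjusted p = 0.0019). Nfil3, which represses the same D-box genes, went the other way with 8 to 67 reads in controls and 56 to 116 in mutants, and did not pass (log2 1.51 ± 0.55, adjusted p = 0.548). At ZT14 alone Tef (adjusted p = 0.0956), Hlf (0.167) and Dbp (0.171) missed the threshold, and at ZT10 alone Hlf (0.388) and Dbp (0.0528) did. Hlf also missed it over both times with the mitochondrial share as a covariate.

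**Figure D2:**
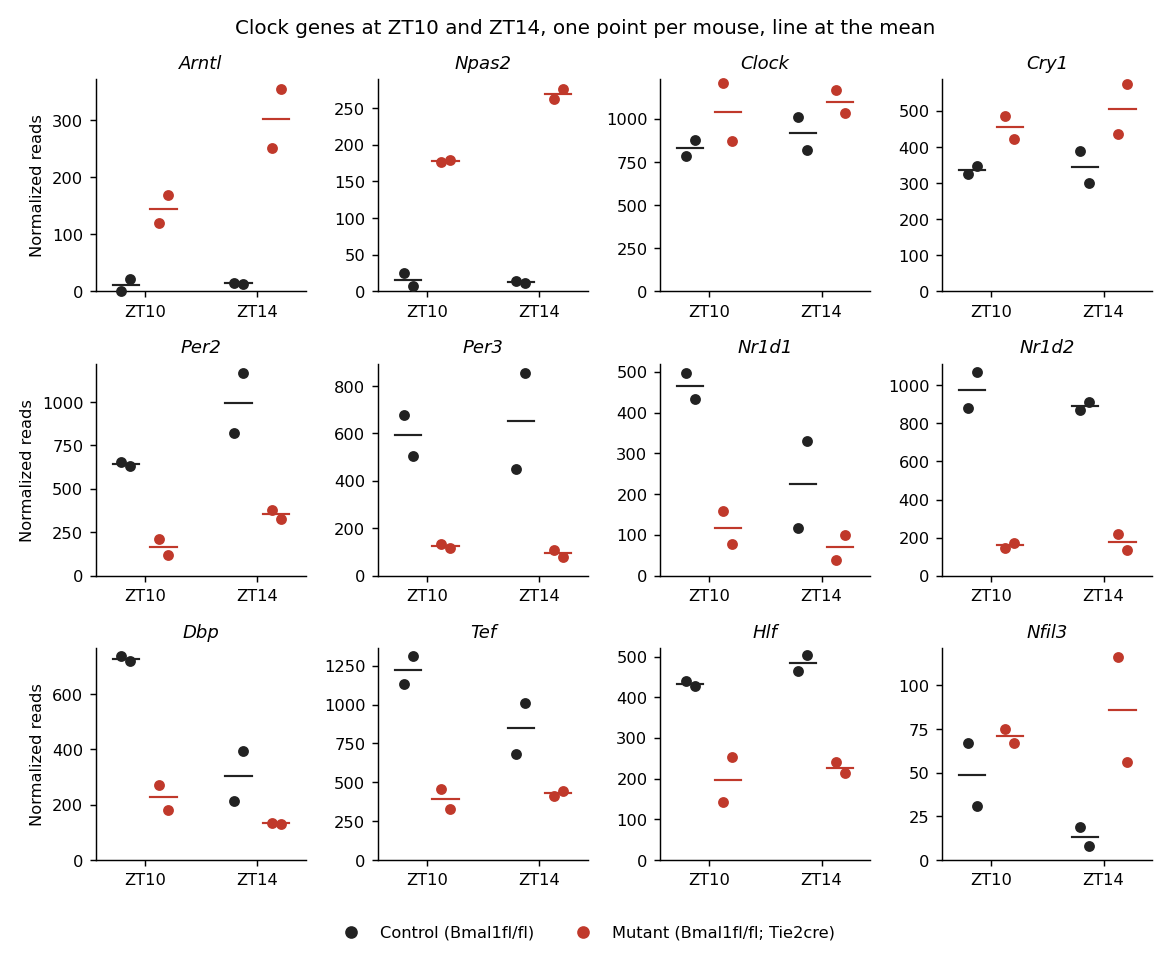
Normalized reads of 12 clock genes in the 8 mice, with ZT10 and ZT14 on the horizontal axis, 1 point per mouse and a line at the mean of each group of 2 mice. Arntl and Npas2 lie higher in every mutant, Per2, Per3, Nr1d2, Tef and Hlf lie lower in every mutant, and Clock shows overlapping groups.

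Tef has 2 annotated start sites, and the 250 bases before each held 1 E-box, 127 bases before the first and 138 bases before the second. They are shown as the only windows with this E-box among the activators, repressors, REV-ERB genes and PAR bZIP factors called that had a window, with the E-box in capitals. They lie at chr15:81802423-81802672 and chr15:81811164-81811413, both on the plus strand (RefSeq, GRCm38.p6).
Tef, first start site: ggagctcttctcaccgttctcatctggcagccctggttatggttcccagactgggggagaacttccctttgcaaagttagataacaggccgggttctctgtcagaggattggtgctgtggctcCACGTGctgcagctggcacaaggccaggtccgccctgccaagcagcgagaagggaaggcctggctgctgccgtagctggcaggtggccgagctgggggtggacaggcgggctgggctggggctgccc
Tef, second start site: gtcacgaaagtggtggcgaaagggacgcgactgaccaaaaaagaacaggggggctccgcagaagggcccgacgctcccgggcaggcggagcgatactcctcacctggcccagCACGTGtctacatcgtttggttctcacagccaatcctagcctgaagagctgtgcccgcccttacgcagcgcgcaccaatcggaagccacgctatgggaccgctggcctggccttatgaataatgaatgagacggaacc

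Over the windows from 250 bases before to 50 bases after the start sites, the E-box CACGTG was found in 4 of the 13 genes called lower that had a window (Ankrd12, Tef, Tgfb2 and Tspan4) and in 0 of the 22 genes called higher, against 11.4% of the 10546 genes tested that had a window and 7.15% of all 32851 windows. Its variant CACGTT was in Fmo2 and Nr1d1 of the genes called lower and in 0 of those called higher, against 6.28% of the genes tested and 4.68% of all windows. The D-box, searched as TTATGTAA or TTACGTAA, was in Per3 alone, against 0.844% of the genes tested and 1.06% of windows. The RORE core TAGGTCA was in Arntl and Fam124b, both higher in mutants, and in 0 genes called lower, against 2.12% of the genes tested and 2.61% of windows. All letters were searched on both strands and no motif contains another. Nr1d2, Npas2 and Dbp held none of these letters in this window.

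Of the genes outside the clock, Mmp15, which encodes a membrane-bound matrix metalloproteinase, had the smallest p-value of all. Its controls were at 198, 225, 216 and 207 reads and its mutants at 1152 and 902 at ZT10 and 1175 and 1102 at ZT14. Both groups were tight, and mutants lay 4.95-fold higher (log2 2.31 ± 0.16, adjusted p = 2.27e-07). Among matrix metalloproteinases and their inhibitors, a list written after the values were seen, Mmp15 was the only one called of the 14 tested. Plat, the tissue plasminogen activator that endothelium releases to dissolve clots, was at 580 and 990 reads in the ZT10 controls, 1315 and 1280 in the ZT14 controls, 2187 and 2490 in the ZT10 mutants and 3174 and 4155 in the ZT14 mutants. All mutants were above all controls, by 2.80-fold (log2 1.49 ± 0.16, adjusted p = 7.19e-05). It was the only one of 27 genes of vascular tone and haemostasis called by edgeR and by limma-voom, and edgeR called 0.303% of all genes. DESeq2 called Ptgs1 as well, and the median log2 difference of that list was 0.06. At an unadjusted p under 0.05 by edgeR there were 6 of the 27, against 6.9% of all genes. Among the other members of the list, Vwf (log2 0.12, adjusted p = 0.973) and Nos3 (0.23, 0.844) did not pass.

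Cdkn1a, which encodes the cell cycle inhibitor p21, had 267 to 396 reads in controls and 770 to 1562 in mutants. The genotypes did not overlap, and mutants lay 3.59-fold higher (log2 1.84 ± 0.19, adjusted p = 4.31e-05). Of the 15 clock output and cell cycle genes tested, edgeR and limma-voom also called Tspan4 and DESeq2 called Tspan4, Gpcpd1 and Leo1. By edgeR 5 of the 15 had an unadjusted p under 0.05, against 6.9% of all genes, and 0.303% of all genes were called. Tspan4 lay at 184 to 307 reads in controls and 79 to 136 in mutants (log2 -1.25 ± 0.26, adjusted p = 0.0456 by edgeR). Its call was lost in 5 of the 8 tests that left out 1 library (adjusted p up to 0.235). The call was also lost in the test over all 24 libraries and with sex or the mitochondrial share as a covariate. Wee1, a cell cycle kinase gene, did not pass (log2 -1.25, adjusted p = 0.58). The genes of clock kinases and ubiquitin ligases held 0 calls among 15 by edgeR, DESeq2 or limma-voom and 0 at an unadjusted p under 0.05 by edgeR, with log2 differences from -0.12 to 0.42. Those of chromatin factors of the clock also held 0 calls among 15 by these 3 tools, with 1 at an unadjusted p under 0.05 by edgeR.

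Fam124b, a gene of poorly known function, was nearly unread in the controls of ZT10 and ZT14 but not at all times. It had 174 and 131 reads in the ZT2 controls and 195 and 135 in the ZT22 controls. The mutants had 216 and 165 reads at ZT2 and 251 and 280 at ZT22. At ZT10 and ZT14 the groups lay further apart. The controls had 18 and 18 reads at ZT10 and 7 and 4 at ZT14, and the mutants 211 and 151 at ZT10 and 170 and 147 at ZT14, which is 15.3-fold higher (log2 3.93 ± 0.43, adjusted p = 6.17e-05). Bche, which encodes the plasma cholinesterase, had 228 to 429 reads in controls and 779 to 1153 in mutants (log2 1.42 ± 0.16, adjusted p = 1.10e-04). Vwa3a had 78 and 112 reads in the ZT10 controls, 28 and 62 in the ZT14 controls, 223 and 283 in the ZT10 mutants and 507 and 619 in the ZT14 mutants (log2 2.45 ± 0.38, adjusted p = 0.00267). The genotypes did not overlap at either time.

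**Figure D3:**
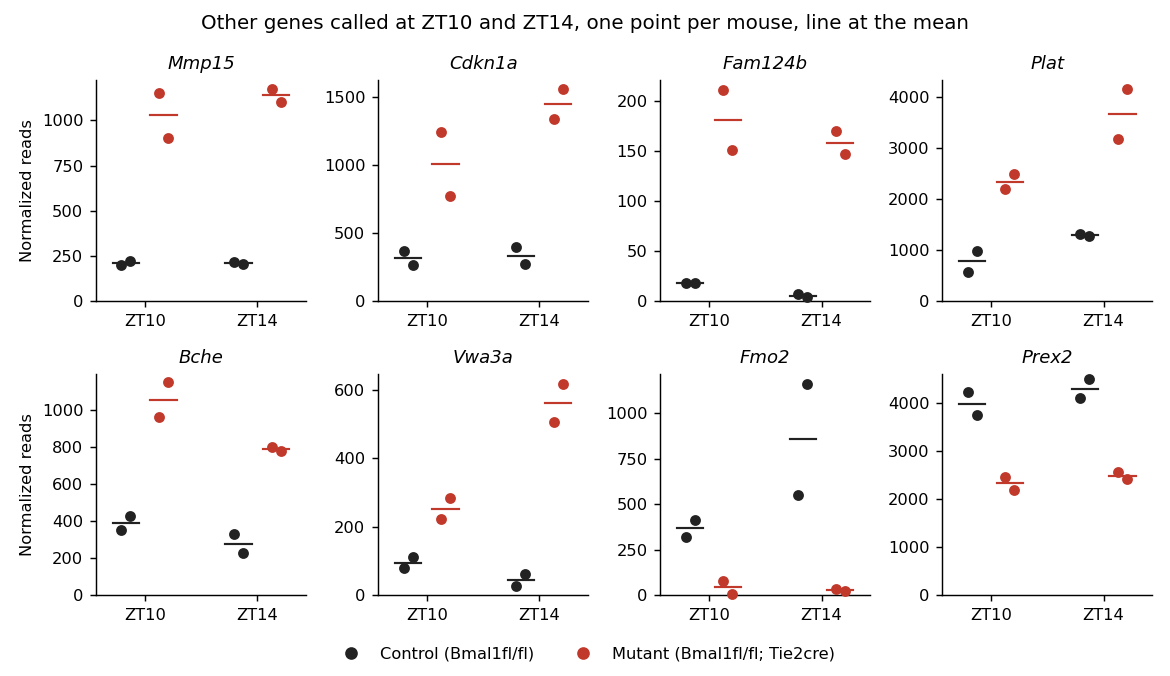
Normalized reads of 8 called genes outside the core clock in the 8 mice, by time, with 1 point per mouse and a line at the mean of each group of 2 mice. Mmp15, Cdkn1a, Fam124b, Plat, Bche and Vwa3a lie higher in every mutant, and Fmo2 and Prex2 lie lower in every mutant.

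Further genes were higher in mutants. Cx3cl1, the ligand of the microglial receptor CX3CR1, had 128 to 315 reads in controls and 591 to 855 in mutants (log2 1.47 ± 0.21, adjusted p = 0.00124). Rflnb, a filamin-binding protein gene (log2 1.40), Plekhg1, a guanine nucleotide exchange factor gene (1.08), Parvb, which encodes the focal adhesion protein beta-parvin (1.13), Cacna1e, a voltage-gated calcium channel gene (1.54), and Pllp, which encodes plasmolipin (1.08), all rose without overlap between genotypes. Sox18, a transcription factor of endothelial differentiation, had 468 to 721 reads in controls and 893 to 1548 in mutants (log2 0.90 ± 0.16, adjusted p = 0.00991). Its call was lost without control replicate 1 or 2 of ZT14 or mutant replicate 2 of ZT14, with an adjusted p of up to 0.0762. The call of Sox18 was also lost with the mitochondrial share as a covariate.

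Lower in mutants were several genes with no known part in the core clock. Fmo2, a flavin-containing monooxygenase gene, fell from 321 and 414 reads in the ZT10 controls and 552 and 1159 in the ZT14 controls to 80 and 5 in the ZT10 mutants and 34 and 23 in the ZT14 mutants. This was a 16.3-fold difference without overlap (log2 -4.02 ± 0.51, adjusted p = 3.25e-04). Prex2, a Rac exchange factor gene, was among the genes with many reads, at 3735 to 4490 in controls and 2178 to 2552 in mutants (log2 -0.83 ± 0.12, adjusted p = 0.00192). Cxcl1, a neutrophil chemokine, had 115, 61, 120 and 22 reads in controls and 4, 0, 3 and 9 in mutants (log2 -4.38 ± 0.80, adjusted p = 0.0156). By edgeR it was the only one called among 24 immediate-early and cell isolation genes, against 0.303% of all genes. With it, 5 of the 24 had an unadjusted p under 0.05, against 6.9% of all genes. Jun (log2 0.32, adjusted p = 0.67), Egr1 (0.35, 0.70) and Fos (0.19, 0.92) did not pass. The call of Cxcl1 was lost with limma-voom, with the mitochondrial share as a covariate and in 4 of 8 tests that left out 1 library (adjusted p up to 0.254). Gm16011, a processed pseudogene within the gene Gm609, had 65 to 315 reads in controls and 26 to 41 in mutants (log2 -2.60 ± 0.38, adjusted p = 0.00169), and reads of near-identical copies may have been split between them. Smaller falls were measured for the transforming growth factor gene Tgfb2 (log2 -0.75), the chromatin factor gene Arid4a (-0.78), the surface protein gene Cd200 (-0.98), Gbp5 (-0.75) and Ankrd12 (-0.77). Each of these 5 lost the call in 3 to 6 of the 8 tests that left out 1 library, with adjusted p-values of up to 0.181. All but Cd200 also lost it with the mitochondrial share as a covariate, and Cd200 lost it in the test over all 24 libraries.

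Genes of the blood–brain barrier and its transport were read in 4 lists, beside 0.303% of all genes called and 6.9% with an unadjusted p under 0.05. Of 29 ABC transporter genes 0 were called by edgeR, DESeq2 or limma-voom, with 4 at an unadjusted p under 0.05 and a median log2 difference of 0.17. Abcb1a, the gene of the efflux pump P-glycoprotein, had 10074 to 12405 reads in controls and 10625 to 12284 in mutants (log2 -0.04 ± 0.12, adjusted p = 0.984). Abcg2, a second efflux pump of this barrier, had 2436 to 3307 and 2474 to 3501 reads (log2 -0.11 ± 0.13, adjusted p = 0.936). Over both times the groups overlapped for both genes, while at ZT14 both mutants lay above both controls for Abcb1a. Of 18 magnesium channel and transporter genes Cnnm2 was called, with 83 to 217 reads in controls and 306 to 513 in mutants (log2 1.39 ± 0.28, adjusted p = 0.0294), and 2 further ones had an unadjusted p under 0.05. Trpm7, a magnesium channel and kinase, had 907 to 1213 reads in controls and 755 to 988 in mutants, with overlapping groups (log2 -0.32 ± 0.15, unadjusted p = 0.044, adjusted p = 0.718). Cnnm2 lost its call in 6 of the 8 tests that left out 1 library (adjusted p up to 0.178) and with the mitochondrial share as a covariate.

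Among 32 solute carriers and receptors of the barrier Lrp8, a receptor for apolipoprotein E and reelin, was called, with 1178 to 1588 reads in controls and 1996 to 2584 in mutants (log2 0.75 ± 0.13, adjusted p = 0.00785), and 7 of the 32 had an unadjusted p under 0.05. The glucose transporter Slc2a1 (log2 -0.13, adjusted p = 0.939) and the amino acid transporter Slc7a5 (-0.03, 0.985) had overlapping groups. Of 22 junction genes 0 were called by edgeR, with 5 at an unadjusted p under 0.05, while DESeq2 called Cldn5 and Cgn and limma-voom called Cldn5. Cldn5, the main claudin of these cells, came nearest with 2385 to 4406 reads in controls and 4953 to 8008 in mutants without overlap (log2 0.78 ± 0.17, adjusted p = 0.0598). By edgeR it passed in 1 of the 8 tests that left out 1 library. Its lowest reads were in control replicate 1 of ZT10, which also had the lowest endothelial sum (11930 CPM). The part of endothelial content in the difference of Cldn5 was not tested. Ocln had a log2 difference of 0.04 (adjusted p = 0.985). In the lists of Wnt, Notch and VEGF signalling (29 genes) and of arterial, capillary and venous genes (20 genes) 0 were called by edgeR, with 3 of 29 and 8 of 20 at an unadjusted p under 0.05, against 6.9% of all genes, and DESeq2 called 1 gene of the second list, Gkn3, and limma-voom 0. Glucocorticoid-responsive (19 genes), heat-shock and cold-inducible (17), ER stress (21), lipid synthesis (24), interferon and MHC class I (25), redox (19) and nuclear receptor and drug metabolism genes (18) also held 0 calls by edgeR, with 0 to 5 genes each at an unadjusted p under 0.05, where DESeq2 called 1, Gsta4, and limma-voom 0.

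A group of basement membrane genes was seen among the calls, and a list of 26 such genes was then written with the values known. Of the 24 that were tested, 4 were called higher and 0 lower by edgeR, against 0.194% of all genes called higher, while the list's median log2 difference was 0.13. At ZT10 the median was -0.013 with 10 of the 24 genes positive, and at ZT14 it was 0.43 with 19 positive, against 0 and 0.02 over all genes. The summed endothelial markers were also higher in both ZT14 mutants (16990 and 15830 CPM) than in both ZT14 controls (13190 and 13910 CPM), and their part in this was not tested. Lama3, a laminin chain gene, had 395 to 425 reads in controls and 736 and 671 in the ZT10 mutants and 1355 and 1003 in the ZT14 mutants (log2 1.10 ± 0.17, adjusted p = 0.00267). Col4a1 and Col4a2, the collagen chains of every basement membrane, are neighbours that overlap at their starts on chromosome 8 and are named outside the rule for named genes. Col4a1 had 7375 and 8382 reads in the ZT10 controls, 4803 and 5870 in the ZT14 controls, 11195 and 10886 in the ZT10 mutants and 13233 and 11139 in the ZT14 mutants (log2 0.79 ± 0.15, adjusted p = 0.0169). Col4a2 had a log2 difference of 0.79 ± 0.15 as well (adjusted p = 0.0192). Npnt, which encodes the integrin ligand nephronectin, had 73 to 208 reads in controls and 196 to 487 in mutants, with overlapping groups (log2 1.34 ± 0.25, adjusted p = 0.0189). Of the 4, Lama3 kept its call whichever library was left out, and the others lost it in 4 to 6 of the 8 tests (adjusted p up to 0.176). Col4a1, Col4a2 and Npnt also lost it with the mitochondrial share as a covariate, and Col4a2 and Npnt in the test over all 24 libraries.

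At ZT10 alone 12 genes were called (0.0775%), 7 higher and 5 lower, and at ZT14 alone 42 were called (0.271%), 20 higher and 22 lower. Leaving out control replicate 1, control replicate 2 or mutant replicate 2 of ZT10 left 3, 6 and 3 calls at ZT10, and leaving out control replicate 1, mutant replicate 1 or mutant replicate 2 of ZT14 left 9, 8 and 11 calls at ZT14. With all libraries, 10 genes were called at each time on its own: Nr1d2, Cdkn1a, Npas2, Bche, Per3, Plat, Mmp15, Plekhg1, Fam124b and Per2. Per3 and Per2 are listed as a description, since the choice of times used the Per genes. With limma-voom Npas2 and Fam124b missed the threshold at ZT10 (adjusted p = 0.207 for both) and Fam124b at ZT14 (0.102), with DESeq2 size factors Plekhg1 missed it at ZT14 (0.0515), and DESeq2 gave Npas2 and Fam124b no adjusted p at ZT14. All 47 genes had the same direction and an unadjusted p under 0.05 at both times, and such genes are favoured by the joint test. The call at ZT10 that was absent from the 47 was Cpm, a carboxypeptidase gene, with 221 and 123 reads in controls and 22 and 22 in mutants at ZT10 and with 183 and 155 in controls and 110 and 113 in mutants at ZT14 (log2 -2.96 at ZT10, adjusted p = 0.012). Its call was lost with limma-voom (adjusted p = 0.337) and without control replicate 1 or either mutant of ZT10 (up to 0.236). Of the 10 genes, Nr1d2 and Mmp15 kept the call at both times whichever library was left out.

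The ZT14 test called 15 genes that were not among the 47. Of these, 5 were mitochondrially encoded and 7 carried Gm names (pseudogenes by the annotation where matched), all lower in mutants. Among the pseudogenes, Gm28439, Gm10925, Gm28661 and Gm29216 lie side by side at chr1:24611535-24616197. Whether the calls of the pseudogenes and of the mitochondrial genes are separate results was not tested. mt-Cytb, a subunit of respiratory complex III, had 37784 and 32188 reads in the ZT10 controls and 131242 and 73902 in the ZT14 controls, against 29162 and 43469 in the ZT10 mutants and 35622 and 44635 in the ZT14 mutants. The ZT14 controls stood apart from the other 6 libraries (log2 -1.44 at ZT14, adjusted p = 0.0132), as in the mitochondrial shares of the whole libraries. The median log2 difference of the 13 mitochondrially encoded proteins was -1.23 at ZT14 and 0.09 at ZT10, and which of these levels came from the cells and which from the preparation was not tested. The remaining calls were Lamc3, a laminin chain gene with 441 and 457 reads in the ZT14 controls and 1163 and 1055 in the ZT14 mutants (log2 1.22, adjusted p = 0.015), and Upf3b and Ttc3, both lower. The ZT14 call of Lamc3 was lost without any of the 4 libraries of ZT14 (adjusted p up to 0.398), and that of mt-Cytb without control replicate 1 or either mutant of ZT14 (up to 0.466).

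By edgeR, 0 genes had a genotype difference that itself differed between ZT14 and ZT10 (0%), with 837 at an unadjusted p under 0.05 and a lowest adjusted p of 0.725. DESeq2 called 9 such genes and limma-voom 0. The difference was larger at ZT14 for 31 of the 47 (66%), and for 53.7% of all genes tested. For 4 of the 47 (8.51%, against 5.4% of all genes) the test of the difference gave an unadjusted p under 0.05: Vwa3a (log2 1.40 at ZT10 and 3.56 at ZT14), Lama3 (0.76 and 1.44), Col4a1 (0.48 and 1.11) and Fmo2 (-3.11 and -4.98). All 4 differences were larger at ZT14.

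**Figure D4:**
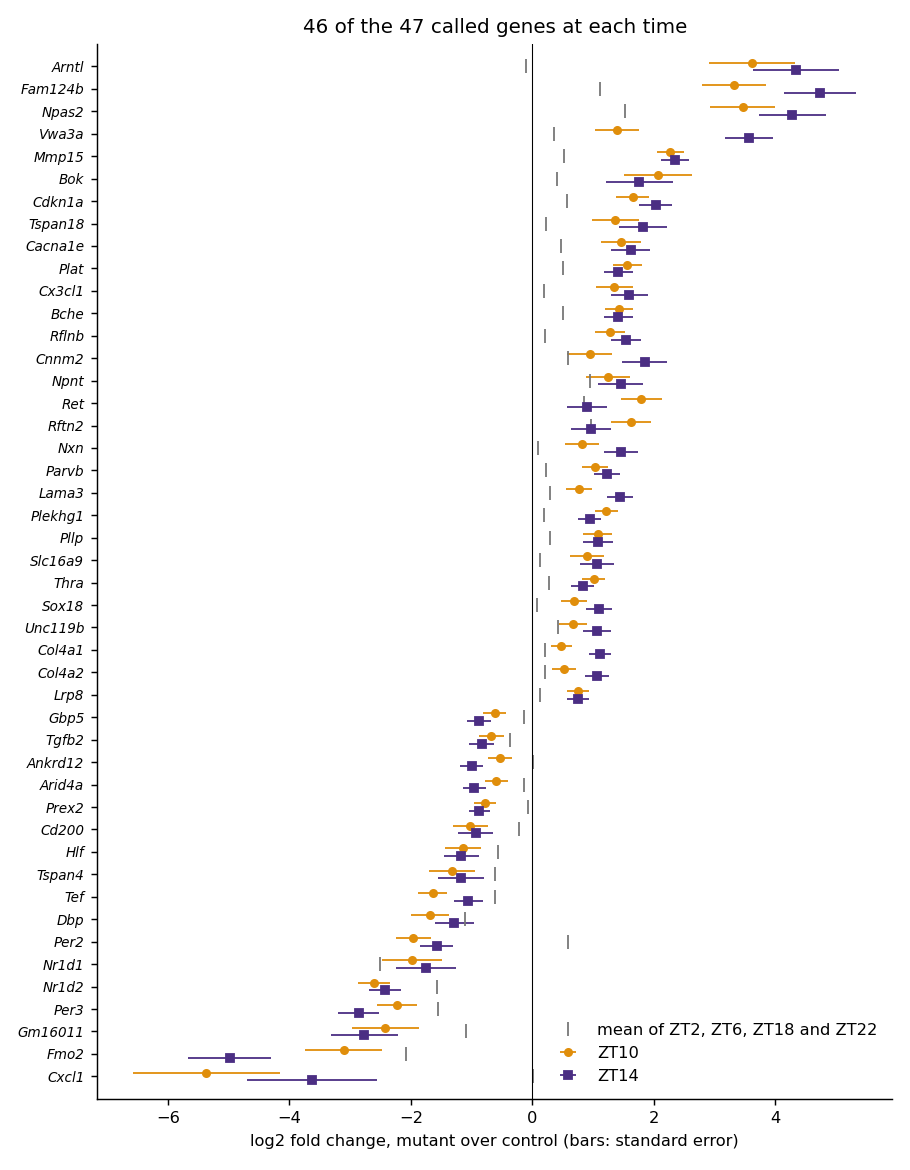
Log2 fold change of mutants over controls for 46 of the 47 called genes at ZT10 (circles) and ZT14 (squares), with bars for 1 standard error, and at the mean of the other 4 times over all 16 libraries (grey ticks). The estimates at ZT10 and ZT14 lie on the same side of 0 for all 46 genes drawn, and 42 of the grey ticks lie on that side too.

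The same genes were then read at the other 4 times, whose 16 libraries did not enter the test that called them. The filter on low reads did use these libraries, and the choice of times rested on control Arntl and the Per genes. At the other 4 times, 42 of the 47 genes had the same direction (89.4%), against 51.5% of all genes tested, and 23 also had an unadjusted p under 0.05 (48.9%, against 3.57% of all genes). This count was 35 without the 2 libraries that went against their labels (74.5%, against 3.85%). Over all genes that test called 5 (0.0323%), of which Nr1d1 (log2 -2.51 ± 0.44, adjusted p = 0.0183), Nr1d2 (-1.58 ± 0.27, 0.0151) and Ret (0.85, 0.00949), a receptor tyrosine kinase gene outside the rule for named genes, were among the 47. Cry1 was called there (log2 1.11, adjusted p = 0.00695) and not at ZT10 and ZT14, and the test of the difference between these effects did not pass for it (adjusted p = 0.53). The log2 differences at these times without the 2 libraries were -1.75 for Nr1d1, -1.81 for Nr1d2, 0.96 for Ret and 1.25 for Cry1, all called, and the test of the difference did not pass for Cry1 there either (adjusted p = 0.379). The genes of opposite direction included Per2, with a log2 difference of 0.58 ± 0.26 at the other 4 times. Arntl (-0.11 ± 0.25), Cxcl1 (0.006 ± 0.39) and Ankrd12 (0.016 ± 0.11) were also of opposite sign, by less than their standard errors, so that no reversal is shown for them. Without the 2 libraries, 44 of the 47 had the same direction (93.6%, against 52.5% of all genes), Arntl, Per2 and Cxcl1 not, and the test over these 14 libraries called 21 genes (0.136%), of which 11 were among the 47. These libraries were picked by the reads of genes among the 47, such as Npas2 and Fmo2, so leaving them out favours a larger difference in the 47, and the values without them, here and in what follows, are a description and not support.

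The test of whether the genotype difference at ZT10 and ZT14 differed from that at the other 4 times called 3 genes (0.0194%), Mmp15 and also Arntl and Per2, whose own levels set the choice of times, with 1143 genes at an unadjusted p under 0.05. Without the 2 libraries that went against their labels it called 5 (0.0323%), these 3 and Fam124b (log2 2.42) and Vwa3a (1.64). Against ZT22 and ZT2 alone, the opposite phase of the day, it called the same 3 genes (0.0194%), and without those 2 libraries, which enter there only through the spread shared by all groups, 11 genes (0.071%), of which 10 were among the 47, with the 3 genes included. Arntl in controls stood at 439 and 466 reads at ZT2 and 468 and 234 at ZT22, where mutants had 243 and 259 and 242 and 205, so that mutants held an intermediate level at these times. The change of the Arntl difference was 4.05 ± 0.50 on the log2 scale, and against ZT22 and ZT2 it was 4.72 ± 0.56, as the choice of times by low control Arntl favours. Per2 showed the mirror pattern at ZT2, with 36 and 22 reads in controls and 131 and 107 in mutants. At ZT22 its genotypes were close, with 88 and 95 reads in controls and 114 and 99 in mutants. The change of the Per2 difference was -2.42 ± 0.32 and -2.91 ± 0.39 against ZT22 and ZT2, where the same holds for high control Per2.

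Mmp15 in controls was low at ZT10 and ZT14 and higher at every other time, with 939 to 1074 reads at ZT2 and 543 to 618 at ZT22. The mutants had 1071 and 1210 reads at ZT2 and 840 and 964 at ZT22, close to their own level at ZT10 and ZT14. The change of the difference was 1.78 ± 0.28 (adjusted p = 0.00738) and 1.89 ± 0.33 against ZT22 and ZT2 (0.0249). The first call was lost without replicate 1 of the ZT10 controls, the ZT14 controls or the ZT10 mutants (adjusted p up to 0.0709). The second was lost in 7 of the 8 tests that left out 1 library, all but that without mutant replicate 2 of ZT10 (adjusted p up to 0.125). Without the 2 libraries that went against their labels the first change of Mmp15 was 1.46 ± 0.17, that of Arntl 3.91 ± 0.47 and that of Per2 -2.10 ± 0.25. The ZT6 and ZT18 libraries differed from the rest in their makeup, with 255.7 to 450.4 CPM of microglia and macrophage markers against 2173 CPM or more in the other 16 libraries, and the comparison with ZT22 and ZT2 leaves them out. In that comparison limma-voom called 0 genes, with an adjusted p of 0.0623 for Mmp15 and 1323 genes at an unadjusted p under 0.05, and DESeq2 called 48.

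Nr1d2, Plat and Cdkn1a kept a difference of 1 direction over the day by their group means, as Mmp15 did, with or without the 2 libraries that went against their labels. Nr1d2 was lower in mutants at every time by its group means, and the test against the other 4 times did not pass (adjusted p = 0.60, and 0.768 without the 2 libraries). Plat was higher in mutants by its means at all 6 times, with a log2 difference of 0.50 ± 0.11 over the other 4 times (unadjusted p = 1.00e-04, adjusted p = 0.171), and without the 2 libraries 0.58 ± 0.11 (adjusted p = 0.0276). The change from that to ZT10 and ZT14 did not pass the threshold (adjusted p = 0.098, and 0.195 without the 2 libraries). Cdkn1a had a log2 difference of 0.57 ± 0.17 at the other times (unadjusted p = 0.0026, adjusted p = 0.435), and without the 2 libraries 0.61 ± 0.19 (unadjusted p = 0.00415, adjusted p = 0.445). Its change from that to ZT10 and ZT14 did not pass either (adjusted p = 0.19, and 0.379 without the 2 libraries).

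**Figure D5:**
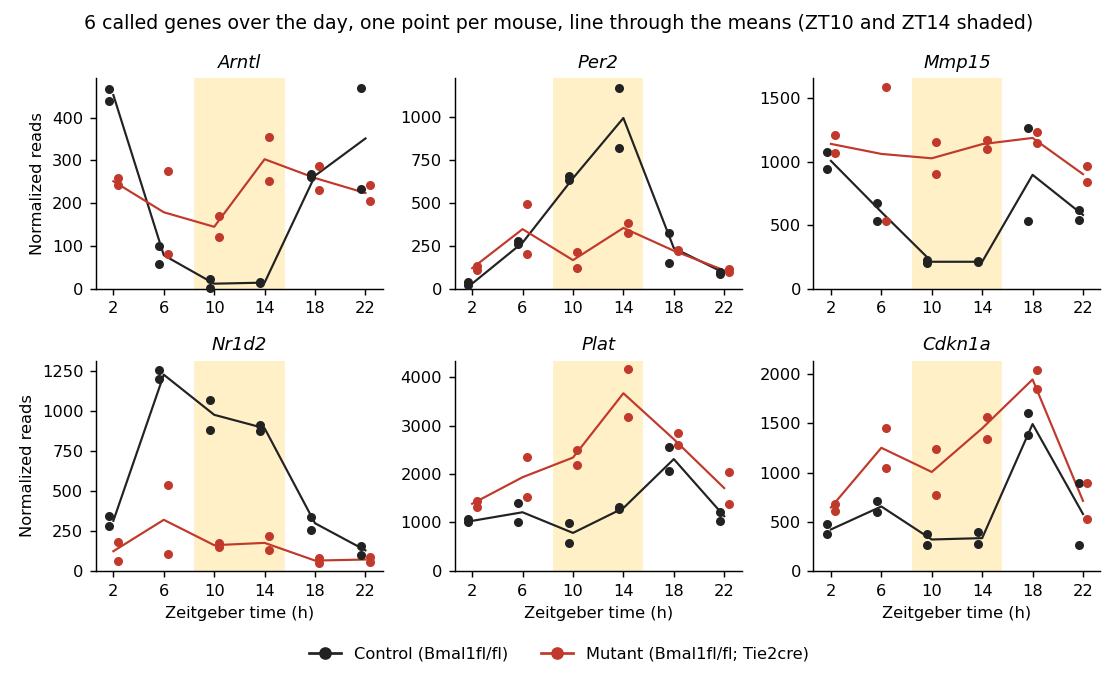
Normalized reads of 6 called genes at the 6 zeitgeber times in hours, with 1 point per mouse, lines through the means of 2 mice, controls in black and mutants in red, and ZT10 and ZT14 shaded. Control levels of Arntl and Mmp15 dip and those of Per2 peak in the shaded times while mutant levels vary less, and Nr1d2 lies lower and Plat higher in mutants by the means at all 6 times. All libraries are drawn by their labels, the 2 of ZT6 and ZT18 that went against them included.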

How the data were processed

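RNA-seq libraries were made with a stranded total RNA kit from CD31-sorted brain cells of single mice. Per the study's methods, the authors mapped them to GRCm38 with STAR 2.5.3a, merged lanes with SAMtools 1.3.1, and normalized and quantified them per Ensembl gene with PORT. The deposited counts are whole numbers (normalized reads per gene) with similar totals in all libraries, so that the sequencing depth of each library before that step is unknown, and a gene's precision here depends on its normalized reads. Of 53465 genes listed, the 15493 with 5 or more reads in at least 6 of the 12 control or 6 of the 12 mutant libraries were kept, as in the study.

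The 8 libraries of ZT10 and ZT14 were fitted with edgeR 4.0.16 (R 4.3.3) using TMM factors and the quasi-likelihood test, with genotype and time point as factors. Each time on its own, the change between both times and the change against other times were contrasts of 1 mean per group, the last over all 24 libraries. Replicates are different mice. Benjamini-Hochberg adjustment of p ran over all genes tested, and called means an adjusted p under 0.05. Fold changes are edgeR estimates with standard errors (SE). Alternatives were DESeq2 1.42.0, limma-voom (limma 3.58.1), other normalizations and filters, a replicate block and each library left out. Sex and the mitochondrial share as covariates were added after seeing the data. The joint test was tested on simulated counts and the contrasts of the others on noise-free group means. The tests with the other times were repeated without 2 libraries that went against their labels, picked by the reads of called genes after seeing the data.

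The members, lists and tests were chosen with earlier results of these data known. Named genes are the clock genes of the 4 core lists, 7 genes the study names, the 15 called genes with the lowest p on either side of the joint test, the 5 lowest on either side of each other test, called members of any list and list members with many reads. Genes outside this rule are marked or were chosen after their values were seen, among them Ret, the collagen genes, the members of the basement membrane list, and list members given as examples. Gene positions came from GENCODE M21 (53274 of 53465 identifiers matched) and promoter windows from RefSeq on GRCm38.p6. Of the 47 called genes, 12 overlap another tested gene. Of the deposited sample columns 0 were left without a label. No value of the study's rhythm tests was used. Some genes that meet the naming rule are not reported here. Figures were drawn with matplotlib 3.10.9 in Python 3.11.15.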

Additional observations from a re-analysis of the deposited data

Results flagged for a closer look

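The genotype difference of Mmp15 differed between times of day by edgeR's quasi-likelihood test with Benjamini-Hochberg adjustment, and Arntl and Per2 are given beside it as a description. With limma-voom the call of Mmp15 against ZT22 and ZT2 was lost (adjusted p = 0.0623). So were those of Arntl and Per2, and that of Arntl against the other 4 times. For Arntl the log2 difference of mutants over controls at ZT10 and ZT14 exceeded that at the other 4 times by 4.05 and that at ZT22 and ZT2 by 4.72. For Mmp15 it exceeded them by 1.78 and 1.89. Without the 2 libraries of ZT6 and ZT18 that went against their labels, the changes against the other 4 times were 3.91 for Arntl, 1.46 for Mmp15 and -2.10 for Per2. ZT10 and ZT14 were chosen as the phase of lowest control Arntl and high Per genes, which favours these changes of Arntl and Per2, so they are a description. The 2 libraries were picked by reads of called genes, so the values without them are a description too. The calls of Mmp15 were kept in 5 of the 8 tests that left out 1 library of ZT10 or ZT14 against the other 4 times and in 1 against ZT22 and ZT2. For Per2 the change was -2.42 against the other 4 times and -2.91 against ZT22 and ZT2. In these 3 genes all 4 mutants at ZT10 and ZT14 lay on 1 side of all 4 controls, while at ZT22 and ZT2 the group means of Arntl and Per2 lay the other way round. The groups of 2 mice are too small for a test of single libraries that stand apart.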

How the results depend on the processing

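Of the 47 genes, 20 stayed called under all 19 alternatives, 27 stayed called whichever 1 of the 8 libraries was left out, and 0 changed direction. Mmp15, Nr1d2, Per3, Npas2, Cdkn1a, Fam124b, Plat, Per2, Bche and Arntl were among the 20. Per3, Per2 and Arntl are listed as a description, since the choice of times used them. Without the filter on low reads 145 genes were called at ZT10 and ZT14 together, 63 at ZT10, 110 at ZT14, 45 for the change between these times, 80 for the change against the other 4 times and 92 for that against ZT22 and ZT2. DESeq2 called 116, 35, 152, 9, 45 and 48 genes in the same order, and all 47 were among its 116. Limma-voom called 66 genes at ZT14, 7 against the other 4 times and 0 against ZT22 and ZT2, where 1323 had an unadjusted p under 0.05. The cause of these changes was not tested. Without the 2 libraries that went against their labels, chosen after seeing the data, the test of the other 4 times called 21 genes in place of 5, that of the change against them 5 and that against ZT22 and ZT2 11. Leaving out 1 library at a time gave 31 to 64 calls for both times together, 3 to 14 at ZT10, 8 to 46 at ZT14, 0 to 1 for the change between them, 2 to 5 against the other 4 times and 2 to 6 against ZT22 and ZT2. Against the other 4 times the count was 5 without control replicate 2 or mutant replicate 2 of ZT10 or control replicate 2 of ZT14, and against ZT22 and ZT2 it was 5 without mutant replicate 2 of ZT10 and 6 without control replicate 2 of ZT14. The 1 call between ZT10 and ZT14 came without mutant replicate 1 of ZT10. At ZT14 alone, where both genotypes carried the same i5 index, 27 of the 47 were called, and with the mitochondrial share as a covariate 29 were. Deviations of same-numbered mice had correlations from -0.00374 to 0.0441, which do not show whether the mice were paired. By Xist reads the replicate 1 mice of ZT10 and ZT14 were all female. The replicate 2 mice were male except mutant replicate 2 of ZT10, so that replicate number and sex largely coincide in these 8 libraries. With replicate number as a block 52 genes were called for both times together, all 47 included, 25 at ZT10 and 52 at ZT14. The block gave 3 calls for the change between the times, 12 against the other 4 times and 3 against ZT22 and ZT2.

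The genes followed singly whose direction changed in an alternative were not called with all libraries or in the alternative that changed it. With the mitochondrial share as a covariate these were mt-Nd3 (log2 0.091), Cry2 (-0.034) and Rorb (0.45). At ZT14 alone they were Slc2a1 (0.13), Abcb1a (0.016) and Slc7a5 (0.15), and with sex as a covariate Abcb1a (0.0085) and Slc7a5 (0.047). With 1 library left out, the log2 difference ranged from -0.29 to 0.030 for Slc2a1, -0.57 to 0.57 for Rorb, -0.090 to 0.045 for Abcb1a, -0.083 to 0.20 for Ocln and -0.16 to 0.0663 for Slc7a5. With 2 mice per group, genes with few reads spread widely, and a difference that was not called may still exist.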
